A study of Mus musculus with 8 samples.

Results

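The cytosolic ribosomal protein genes of mouse embryonic stem cells were followed across the loss of a microRNA cluster and the knockdown of a transcription factor. They were taken by name: protein-coding genes whose symbol begins with Rpl or Rps and a digit, together with Rplp0, Rplp1, Rplp2 and Rpsa, without kinases, binding proteins and pseudogenes. The rule gave 85 genes, 52 of the large and 33 of the small subunit, of 55421 genes in the deposited table. Of these, 84 passed the filter on low counts and were tested, among 15137 genes in all, and the remaining gene, Rpl24, had 3 to 9 counts a library.

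All cells were E14 embryonic stem cells of 129/Ola background, labelled as derived from the blastocyst and grown on gelatin in serum and LIF. There were 4 groups of 2 libraries: wild-type cells (WT), cells lacking the miR-290-295 cluster (KO), and the same knockout genotype given at 5 nM, for 36 hours, either a negative-control siPOOL (siNeg) or a siPOOL against Tfap4 (siTfap4). A siPOOL is a mixture of many small interfering RNAs against 1 transcript. The labels call the duplicates biological, and do not say whether they were separate clones or cultures, so the p-values measure the spread between these libraries. The titles of 1 WT and 1 KO library, of different replicate numbers, share a tag, CC, that the labels do not explain. WT replicate 2 and KO replicate 1 each carry another tag, also unexplained. A difference in preparation that these tags may mark was not tested. The untreated WT and KO libraries were taken as 1 set and the 4 siPOOL libraries as another. A difference between KO and siNeg therefore cannot be told apart from a difference between the sets. The comparisons were therefore KO against WT, which follows the loss of the microRNAs, and siTfap4 against siNeg, which follows the knockdown of Tfap4 in cells without them.

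Ribosomal proteins join the ribosomal RNAs to form a small subunit, which reads the mRNA, and a large subunit, which joins the amino acids. Their mRNAs are among the most abundant of a growing cell, and most begin with a C followed by an unbroken run of pyrimidines, the terminal oligopyrimidine tract, through which LARP1 and the mTORC1 kinase couple their translation to growth. The compact, highly expressed genes have been copied back into the genome many times as processed pseudogenes, which carry the mRNA's own 3′ end. The miR-290-295 microRNAs are the leading microRNAs of mouse embryonic stem cells, and Tfap4 is a helix-loop-helix factor that binds the E-box CAGCTG.

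Printed first are 3 mature members of the deleted cluster, to show the seed they share, which is what a target site must match. The capitals mark the seed, bases 2 to 8, and the sequences are RefSeq's on GRCm38.p6, from chr7:3218968-3218989, chr7:3220691-3220712 and chr7:3220815-3220837, plus strand.
mmu-miR-291a-3p: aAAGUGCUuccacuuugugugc
mmu-miR-294-3p: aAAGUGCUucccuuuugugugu
mmu-miR-295-3p: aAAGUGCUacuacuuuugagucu
The match to bases 2 to 7 in an mRNA is GCACTT. It was present in the annotated 3′ UTR of 9 of 85 ribosomal protein genes, or 10.6%, against 30.1% of 12692 tested genes. The ribosomal protein 3′ UTRs were also short, with a median of 88 bases against 949 for the tested genes.

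The start sites of 6 genes on which the comparisons below turn are printed as the 15 bases before and the 15 after the RefSeq start, to show the pyrimidine runs near each listed start. The capitals mark the longest run of at least 5 C or T that reaches within 5 bases of the start. The run depends on the start listed: different starts listed for Rps24 had runs of 9 and 0 bases. A missing run therefore does not show that an mRNA lacks the tract. The windows lie at chr2:26910792-26910821 (plus strand), chr13:90923107-90923136 (plus), chrX:74270801-74270830 (plus), chr7:109519180-109519209 (plus), chr11:68901551-68901580 (plus) and chr17:27635230-27635259 (minus).
Rpl7a: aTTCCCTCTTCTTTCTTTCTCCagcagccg
Rps23: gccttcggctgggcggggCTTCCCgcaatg
Rpl10: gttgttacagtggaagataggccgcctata
Rpl27a: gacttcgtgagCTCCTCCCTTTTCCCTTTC
Rpl26: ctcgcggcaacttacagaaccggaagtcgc
Rps10: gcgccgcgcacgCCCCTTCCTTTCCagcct
A RefSeq promoter entry was at hand for 65 members. A C followed by 4 further pyrimidines exactly at the listed start was found in 14 of the 65, or 21.5%, against 3.03% of 10552 tested genes. The E-box CAGCTG, which reads the same on both strands, lay in the 300 bases around the start of 4 members (Rpl10l, Rpl35, Rpl3l and Rpl6), or 6.15%, against 18.3% of the tested genes. The E-box CACGTG, also the same on both strands, lay in 6 members, or 9.23%, against 11.8%. The 2 E-boxes do not overlap in their letters, and absence from this window says only that the letters are not there.

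Library totals ran from 8326675 to 12726123 counts, lowest in the siTfap4 libraries. In CPM, counts scaled to the size of the library and given with replicate 1 first, Tfap4 stood at 19.7 and 16.4 (WT), 49.0 and 42.1 (KO), 34.4 and 37.4 (siNeg) and 12.4 and 15.8 (siTfap4). It was higher in KO (log2 fold change 1.33, SE 0.26, adjusted p = 0.00363, edgeR) and lower in siTfap4 (log2 fold change -1.35, SE 0.27, adjusted p = 0.00365, edgeR), in the direction its labels give. The 9 embryonic stem cell markers were all measured, with summed levels of 3568 to 3645 CPM in WT and 3684 to 3697 in KO. Of the 9 fibroblast markers, Col3a1 and Postn had no count in any library, and 3 passed the filter on low counts. In WT, Thy1 stood at 26.5 and 48.3 CPM, Pdgfrb at 2.36 and 4.65 and Col1a1 at 1.71 and 1.65. Counts rose with the GC content of the transcript's last 100 bases in the siTfap4 libraries (slopes of 0.34 and 0.23 log2 units per 10 percentage points), whereas the slopes of the other libraries ran from -0.14 to 0.04.

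Ribosomal protein genes took a large share of every library. Both WT libraries gave them 10.4% of the counts, the KO libraries 10.4% and 9.79%, the siNeg libraries 8.13% and 12.1%, and the siTfap4 libraries 8.39% and 11.2%. The WT and KO libraries lay close together, whereas each siPOOL group had 1 library below and 1 above all 4 of them. The spread lay between duplicates: replicate 1 was lower than replicate 2 in 77 of 84 genes in siNeg, with a median log2 ratio of -0.63, and in 73 of 84 in siTfap4, with a median of -0.62. Over all tested genes the same medians were 0.03 and 0.01. In WT and KO the members' medians were 0.11 and 0.14.

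**Figure D1:**
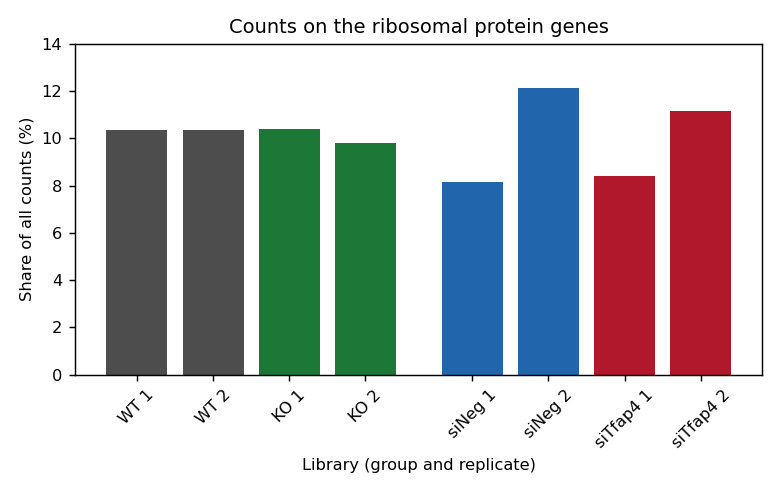
Share of all counts that fell on the 85 ribosomal protein genes (vertical axis, %), 1 bar a library, coloured by group. The 4 untreated libraries lie between 9.79% and 10.4%, and the duplicates of each siPOOL group lie apart, at 8.13% and 12.1% and at 8.39% and 11.2%.

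**Figure D2:**
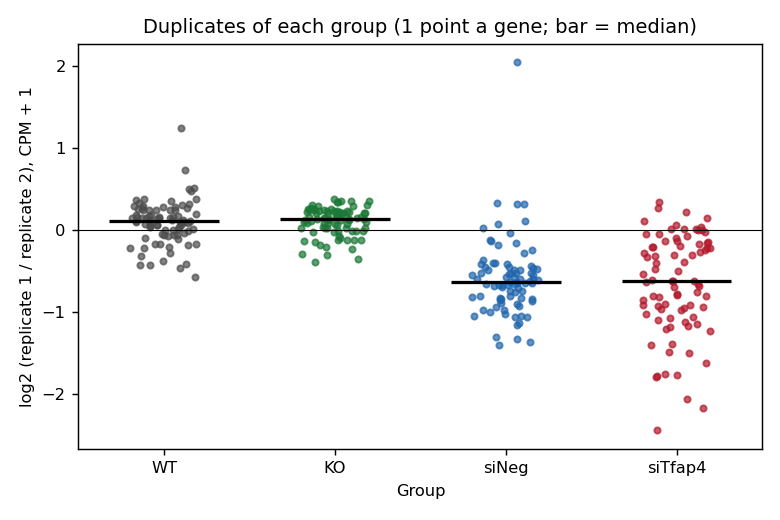
Log2 ratio of replicate 1 to replicate 2 (CPM + 1, vertical axis) in each group, 1 point for each of the 84 tested genes, with the group median as a bar. The points of siNeg and siTfap4 centre on -0.63 and -0.62, those of WT and KO on 0.11 and 0.14.

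CPM values here are scaled with TMM factors and are not divided by transcript length, because a 3′ library reads about 1 fragment per transcript near its poly(A) tail. The 5 genes with the highest mean were Rps12, Rps20, Rpl37, Rps26 and Rps14. Rps12 stood at 4053 and 3906 CPM (WT), 5329 and 4568 (KO), 3637 and 7152 (siNeg) and 3360 and 6352 (siTfap4). Its neighbour in the order, Rps20, a protein of the small subunit's head, stood at 3778 and 4364, 3932 and 4449, 2688 and 4186, and 5942 and 5347 in the same groups, so the order of the pair was not the same in every library. The median member stood at 887 CPM (WT), 803 (KO), 970 (siNeg) and 814 (siTfap4). In WT and KO 4 genes lay below 10 CPM, in siNeg 5 and in siTfap4 7.

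Low levels in this family need care, because copies share the sequence that was read. In 62 of 85 genes more than 50% of the last 200 transcript bases lay in 31-base words also found in another gene, against 16.6% of all counted genes, and 81 of 85 passed 50% around the stop codon. Rpl24, which encodes a protein of the bridge between the subunits, had the lowest mean level. It had 3 to 9 counts a library, against 106 to 338 in the pseudogenes that share its end. Whether sharing lowered its counts was not tested. Rps3a1 had 42 to 114 counts, while Rps3a3, a copy counted as a pseudogene, had 641 to 3789. Rplp1, which encodes a protein of the acidic stalk that recruits elongation factors, had 6312 to 28416 counts, and its copy Gm11942 had 26224 to 57414. How the counting handled reads that match several places is not given in the sources used here, so the levels of such genes are uncertain.

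Loss of the miR-290-295 cluster came with small differences in the ribosomal protein genes. Of 84 tested genes, 0 were called higher and 1, Rps10, was called lower (edgeR, adjusted p under 0.05), or 1.19% in either direction, where 5.99% of all tested genes were called higher, 3.96% lower and 9.95% either way. Both KO libraries lay above both WT libraries in 13 of the 84 and below both in 28, where 28.9% and 28.6% of all tested genes did. DESeq2 and limma-voom each called 1 higher, Rpl10l. By edgeR 5 of the 84 had an unadjusted p under 0.05, beside 3530 of all 15137 tested genes. The median log2 fold change was -0.04 against -0.01 for all tested genes. The SD of the fold changes was 0.30, against 0.97 for all genes and 0.35 for the 125 tested genes at or above the members' median CPM.

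Rps10 encodes a protein of the small subunit, and its gene lies at chr17:27630418-27636669 of GRCm38, minus strand. It stood at 61.2 and 82.2 CPM in WT and at 33.7 and 41.9 in KO. Both KO libraries were below both WT libraries, and the siNeg libraries, at 30.0 and 34.3 CPM, and the siTfap4 libraries, at 41.0 and 47.7, were also below WT. The log2 fold change was -0.92 (SE 0.25, adjusted p = 0.0282, edgeR). Other genes shared 98.5% of its 3′ end, among them the read-through gene RPS10-NUDT3, which had 0 counts in every library. The adjusted p was 0.103 with KO replicate 2 left out, 0.294 with KO replicate 1 left out and 0.228 with WT replicate 2 left out, each of which ended the call. With the counts of its pseudogenes added the log2 fold change was -0.59 (adjusted p = 0.150).

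Rpl10l, an intronless copy of Rpl10 best known for replacing it in male germ cells, had the highest fold change. It stood at 200 and 120 CPM (WT), 289 and 319 (KO), 262 and 367 (siNeg) and 238 and 367 (siTfap4). Both WT libraries were below the other 6. The log2 fold change was 0.92 (SE 0.29, adjusted p = 0.0502, edgeR), just outside the threshold, and moved from 0.61 to 1.35 as each WT or KO library was left out. None of its annotated 3′ end was shared, but 72.5% of the bases around its stop codon were.

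Next to Rpl10l among genes with a largely unshared end were Rpl39l (log2 fold change 0.64, adjusted p = 0.412) and Rpl37a (0.46, adjusted p = 0.371), and the lowest were Rpl3l (-1.11, adjusted p = 0.210), Rps27l (-0.54, adjusted p = 0.328) and Rpl4 (-0.41, adjusted p = 0.347), none past the threshold by edgeR. Rpl3l, the striated-muscle copy of Rpl3, is hardly present here, at 0.765 to 2.03 CPM over the 8 libraries. The 9 genes with GCACTT in the 3′ UTR had log2 fold changes from -0.19 to 0.20 with a median of -0.09, and those without it a median of -0.02. None of the 9 was called. Markers of other cells moved with the genotype. Of the primitive endoderm markers 6 of 9 were lower in KO, with summed levels of 460 to 685 CPM in WT and 322 to 475 in KO. Most of these sums was Sparc, which was not called (298 and 511 CPM in WT, 297 and 454 in KO), so they understate the fall of the 6. Of the fibroblast markers 2 of 3 tested, Thy1 and Col1a1, were lower, with 30.9 to 54.6 CPM in WT and 11.9 to 22.4 in KO, and of the embryonic stem cell markers 1 of 9, Utf1. The part of these markers in the Rps10 and Rpl10l values was not tested.

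**Figure D3:**
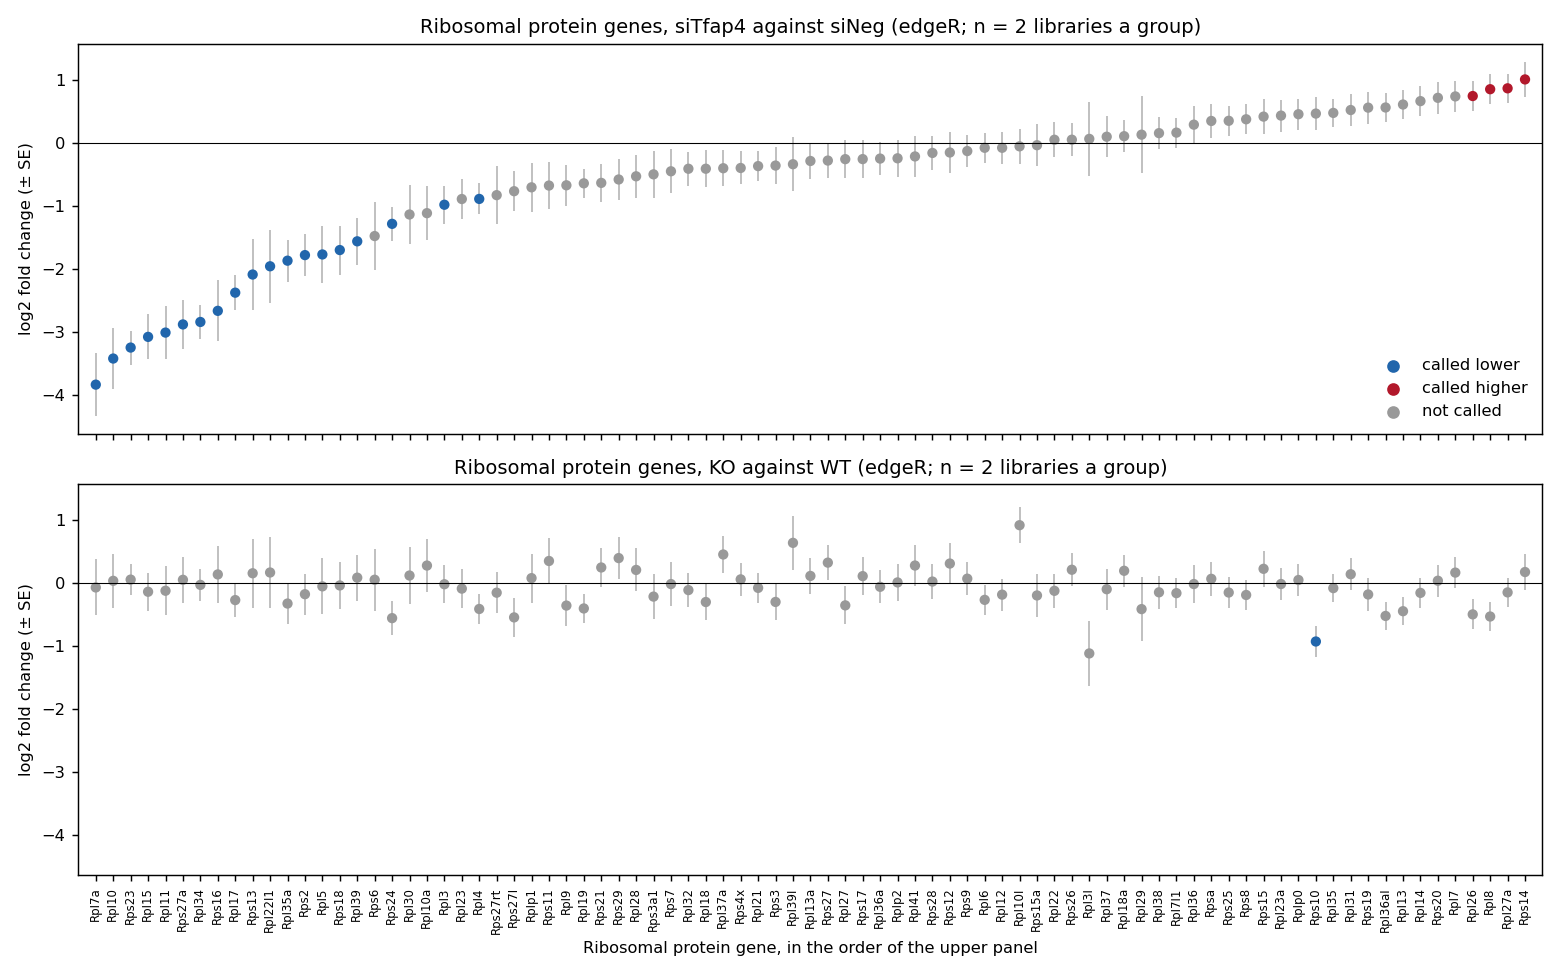
Log2 fold change with its standard error (edgeR, 2 libraries a group) of 83 of the 84 tested genes, siTfap4 against siNeg above and KO against WT below, in the order of the upper panel. The upper panel runs from -3.83 for Rpl7a to 1.01 for Rps14 with 19 genes called lower and 4 higher, and in the lower panel 1 gene, Rps10, is called.

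With Tfap4 knocked down in knockout cells, more of the family than of all tested genes was called lower, and a similar share higher. Of 84 genes 19 fell and 4 rose in siTfap4 (edgeR, adjusted p under 0.05), or 22.6% and 4.76%, where 11.1% and 4.36% of all tested genes were called lower and higher. This fit pooled the spread of all 4 groups. The SD of the members' log2 ratio between duplicates was 0.27 (WT), 0.19 (KO), 0.47 (siNeg) and 0.62 (siTfap4). With the comparison's 4 libraries fitted alone, 14 members were called lower and 0 higher, beside 1466 and 323 of 13675 tested genes. Rpl22l1, Rpl3, Rpl4, Rpl5 and Rps13 were then not called. Both siTfap4 libraries lay below both siNeg libraries in 24 genes and above both in 17, where 29.3% and 28.9% of all tested genes did. The fallen genes changed between 1.85-fold and 14.3-fold. Of the 5 genes with the highest mean CPM, Rps12, Rps26 and Rpl37 differed little, Rps20 was not called and Rps14 was called higher. The SD of the fold changes was 1.12, against 1.01 for all genes and 0.72 for the 125 tested genes at or above the members' median CPM. Both subunits were represented, with 12 lower and 3 higher of 51 tested large-subunit genes and 7 lower and 1 higher of 33 small-subunit genes. The median log2 fold change was -0.28 against 0.01 for all tested genes, but it was 0.14 without siNeg replicate 2 and -0.01 without siTfap4 replicate 1, so its sign rested on single libraries.

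Rpl7a, which encodes a large-subunit protein, fell most. Its gene lies at chr2:26910764-26913318 of GRCm38, plus strand, and hosts several small nucleolar RNAs in its introns. It stood at 693 and 623 CPM (WT), 680 and 579 (KO), 720 and 855 (siNeg) and 20.6 and 89.5 (siTfap4). The 6 libraries without the Tfap4 siPOOL lay within 579 to 855 CPM, far above both siTfap4 libraries, which themselves lay well apart. The log2 fold change was -3.83 (SE 0.50, adjusted p = 0.000503, edgeR), a 14.3-fold lower level, and ran from -5.27 without siTfap4 replicate 2 to -3.15 without siTfap4 replicate 1. Its end is 95.0% shared, and with the counts of its pseudogenes added the log2 fold change was -3.58 (adjusted p = 0.000351).

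Rps23, whose protein sits at the decoding centre of the small subunit, had the smallest p-value. Its gene is at chr13:90922958-90924950, plus strand, with none of the annotated end but 98.5% of the bases around the stop codon shared. It stood at 372 and 285 CPM (WT), 368 and 317 (KO), 478 and 693 (siNeg) and 57.1 and 66.3 (siTfap4). Here the siTfap4 duplicates lie close together, and both are far below every other library. The log2 fold change was -3.25 (SE 0.27, adjusted p = 3.62e-06, edgeR) and stayed between -3.50 and -2.97 when any library was left out.

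Rpl10, an X-linked gene whose protein is among the last to join the large subunit, stood at 155 and 120 CPM (WT), 156 and 126 (KO), 192 and 347 (siNeg) and 10.8 and 39.3 (siTfap4), a log2 fold change of -3.42 (SE 0.49, adjusted p = 0.000851, edgeR). Its copy Rpl10l, under the same siPOOL, had a log2 fold change of -0.05 (adjusted p = 0.919), so the parent fell where no change of the copy was called. Sharing was unequal in this pair: 100% of the Rpl10 end and stop-codon window were shared, against 0% and 72.5% for Rpl10l. With its pseudogenes added the Rpl10 log2 fold change was -3.32 (adjusted p = 0.000486, edgeR). Rpl15, a large-subunit protein gene, stood at 65.7 and 90.4 (WT), 74.3 and 67.9 (KO), 81.2 and 64.2 (siNeg) and 4.71 and 12.4 (siTfap4), a log2 fold change of -3.08 (adjusted p = 5.51e-05, edgeR). With the pseudogenes that share 94.5% of its end added, the Rpl15 log2 fold change was -1.50 (adjusted p = 0.00312).

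Rpl11 and Rpl5 encode the proteins that form a particle with 5S ribosomal RNA, which can also bind MDM2 and so stabilise p53. Rpl11 stood at 129 and 116 CPM (WT), 127 and 99.6 (KO), 144 and 226 (siNeg) and 10.7 and 35.0 (siTfap4), a log2 fold change of -3.01 (SE 0.43, adjusted p = 0.000636, edgeR). Rpl5 stood at 375 and 307, 364 and 297, 359 and 637, and 65.2 and 227 in the same groups, a log2 fold change of -1.77 (SE 0.46, adjusted p = 0.0241, edgeR). Both fell, and neither has a shared annotated end, though 75.0% and 100% of the bases around their stop codons are shared. The Rpl5 call depended on single libraries, with an adjusted p of up to 0.125 as each was left out. Rps27a, which is made as a fusion with ubiquitin, stood at 568 and 816 CPM in siNeg and at 48.5 and 139 in siTfap4, with 457 to 584 in the untreated libraries, a log2 fold change of -2.88 (SE 0.39, adjusted p = 0.000395, edgeR). Rps6, the S6 kinase substrate, was not called (log2 fold change -1.48, adjusted p = 0.0842), with 37.6 and 8.32 CPM in siNeg and 9.43 and 7.19 in siTfap4, and was called once its pseudogenes were added (log2 fold change -1.20, adjusted p = 0.0115).

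The other 13 genes called lower were Rpl34 (log2 fold change -2.84), Rps16 (-2.66), Rpl17 (-2.38), Rps13 (-2.09), Rpl22l1 (-1.96), Rpl35a (-1.87), Rps2 (-1.78), Rpl5 (-1.77), Rps18 (-1.70), Rpl39 (-1.56), Rps24 (-1.28), Rpl3 (-0.98) and Rpl4 (-0.89). Rpl34, Rpl17, Rps13, Rpl35a, Rps2, Rps18 and Rps24 among them, like Rpl35, Rps27rt and Rps3a1, were singled out after their values were seen. In 18 of the 19 fallen genes both siTfap4 libraries lay below all 6 other libraries, the exception being Rpl3. These genes were called for low siTfap4 values, which favours such a pattern. Over all 84 members it was seen in 20, beside 20.3% of all tested genes. In all 19, siTfap4 replicate 1 was below replicate 2, as in 73 of the 84 members. Rpl10, Rpl15, Rpl11 and Rps27a were, like Rpl7a, lowest relative to siNeg without siTfap4 replicate 2 (log2 fold changes -4.65, -3.96, -4.12 and -3.85) and closest to it without siTfap4 replicate 1 (-2.79, -2.56, -2.41 and -2.32). The call held whichever of the comparison's 4 libraries was left out for 11 genes: Rpl7a, Rpl10, Rps23, Rpl15, Rpl11, Rps27a, Rpl34, Rps16, Rpl17, Rpl35a and Rps2.

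The value of Rps13 moved most when pseudogenes were added. Alone it stood at 475 and 964 CPM in siNeg and 60.6 and 277 in siTfap4, with a log2 fold change of -2.09 (adjusted p = 0.0337, edgeR). The processed copy Rps13-ps1 had 7982 to 17429 counts a library, more than Rps13 in every one, and their sum had a log2 fold change of 0.16 (adjusted p = 0.735). Rplp1 moved from -0.70 (adjusted p = 0.243) to 0.51 (adjusted p = 0.262) and Rps27rt from -0.83 (adjusted p = 0.230) to 0.95 (adjusted p = 0.0479) in the same way. These 3 and Rpl15 were the 4 genes whose log2 fold change moved by more than 0.5 on adding the pseudogenes, and 18 of the 19 genes called lower were still called. Of the 23 genes with a largely unshared annotated end, 7 were lower and 1 higher, beside 12 lower and 3 higher of the 61 with a shared end. Of the 4 genes largely unshared both there and around the stop codon, 0 were called, and 4 genes are too few to compare with the rest. Around the stop codon 81 members passed 50% sharing, so where reads end at earlier poly(A) sites the sharing may be larger than the annotated ends show.

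**Figure D4:**
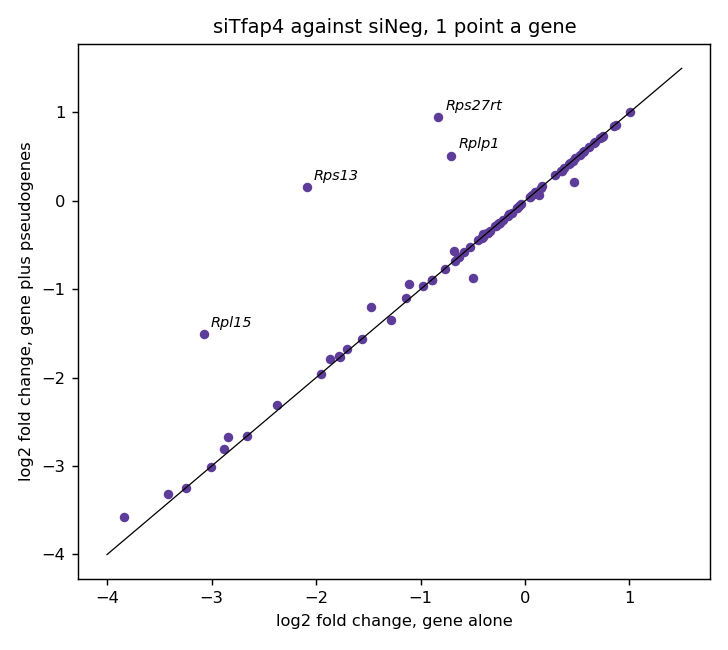
Log2 fold change of siTfap4 against siNeg for each tested gene alone (horizontal axis) and with the counts of the pseudogenes that share its 3′ end added (vertical axis), with the line of equal values. Most genes lie on the line, and the 4 named genes, Rps13, Rps27rt, Rplp1 and Rpl15, lie more than 0.5 above it.

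The 4 genes that rose ranged widely in level. Rps14, whose loss underlies the anaemia of the human 5q deletion, stood at 2733 and 2413 CPM (WT), 3100 and 2730 (KO), 2307 and 4292 (siNeg) and 7268 and 6000 (siTfap4), a log2 fold change of 1.01 (SE 0.28, adjusted p = 0.0244, edgeR). Rpl27a stood at 486 and 588 in siNeg and 973 and 986 in siTfap4, against 723 to 952 in the untreated libraries (log2 fold change 0.87, adjusted p = 0.0191, edgeR). Rpl8 (log2 fold change 0.85, adjusted p = 0.0238) and Rpl26 (0.74, adjusted p = 0.0459) completed the group.

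All 4, which were called for high siTfap4 values, lay above the other 6 libraries in both siTfap4 libraries. Over all 84 members 14 did, beside 17.1% of all tested genes. For Rpl26 the margin was small: 2082 and 2085 CPM in siTfap4 against 2032 in WT replicate 2 and 1011 and 1477 in siNeg. Small too was that of Rpl8, at 3254 and 2791 CPM in siTfap4 against 2757 in WT replicate 1 and 1433 and 1915 in siNeg. For Rpl27a the lower siTfap4 library stood at 973 CPM against 952 in WT replicate 2. Each of the 4 calls was lost on leaving out siNeg replicate 1 or siTfap4 replicate 1, when 0 members were called higher. Without siTfap4 replicate 2 the calls of Rps14, Rpl27a and Rpl8 were kept, and without siNeg replicate 2 all 4 were, among 13 members called higher. With counts corrected for GC content 2 genes were called higher (Rpl27a and Rps20) and 17 lower. Rps20, next to Rpl27a among genes with a largely unshared end, was not called (log2 fold change 0.72, adjusted p = 0.0678, edgeR).

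**Figure D5:**
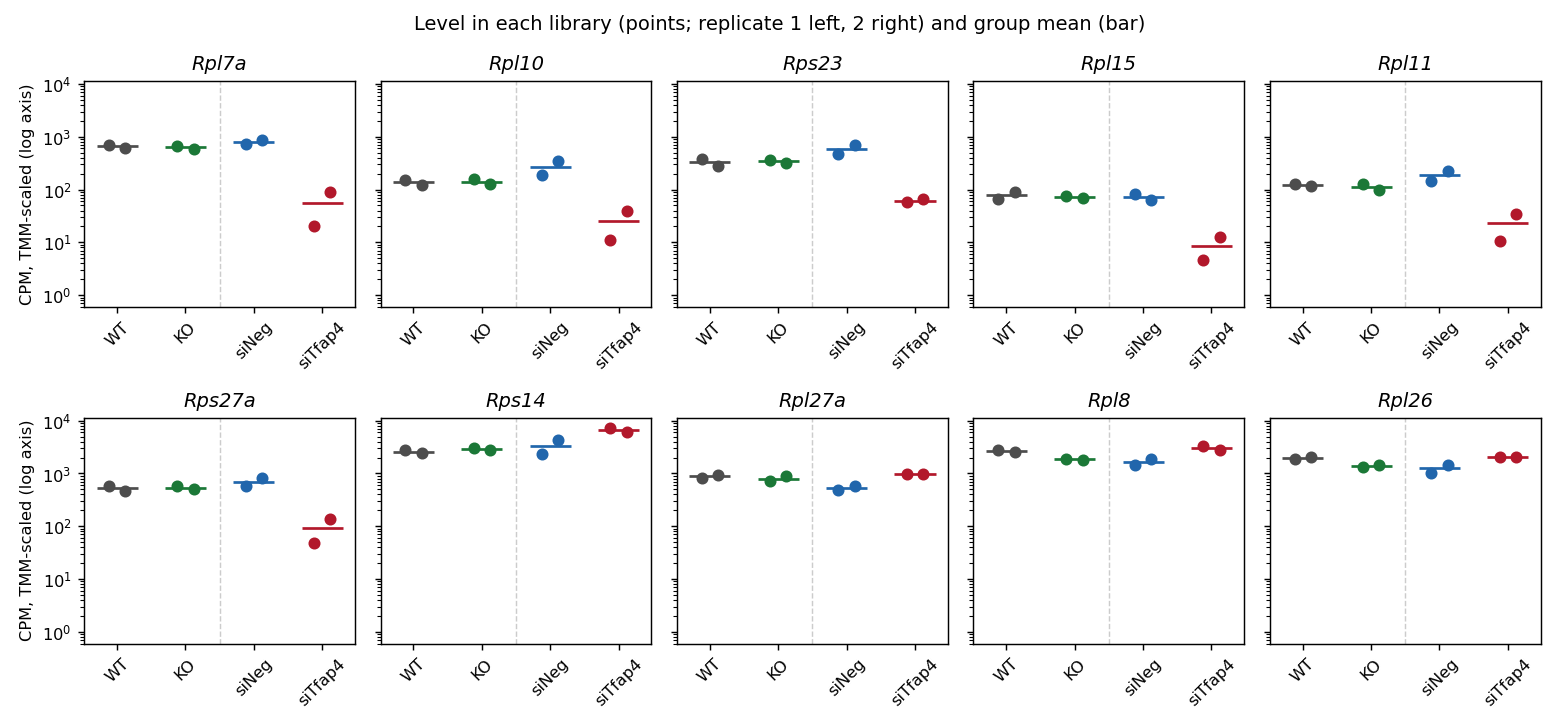
Level in each library (CPM, TMM-scaled, log axis) of the 6 genes that fell most in siTfap4 and the 4 that rose, with replicate 1 left and 2 right and the group mean as a bar; the dashed line parts the untreated from the siPOOL set. Rpl7a lies at 579 to 855 CPM in 6 libraries and at 20.6 and 89.5 in siTfap4, whereas Rps14 lies at 2307 to 4292 in 6 and at 7268 and 6000 in siTfap4.

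The stalk genes Rplp0, Rplp1 and Rplp2, and Rpsa, were not called by edgeR. Rplp0, which anchors the stalk, stood at 1042 and 1580 CPM in siNeg and 1677 and 1919 in siTfap4 (log2 fold change 0.46, adjusted p = 0.224). Rplp2 stood at 1593 and 3196 and at 1693 and 2351 (-0.24, adjusted p = 0.614), and Rpsa, the laminin-receptor protein of the small subunit, at 892 and 1698 and at 1621 and 1676 (0.35, adjusted p = 0.404). In each of these 3 genes the duplicates of siNeg lay further apart than the 2 group means.

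Paralogs and their main copies did not share their calls in every pair. Rpl22l1, which can stand in for Rpl22, fell from 421 and 573 CPM to 39.0 and 217 (log2 fold change -1.96, SE 0.58, adjusted p = 0.0466, edgeR), while Rpl22 was not called (0.05, adjusted p = 0.923). Rpl39 fell from 630 and 968 to 142 and 399 (-1.56, SE 0.37, adjusted p = 0.0132, edgeR), while its copy Rpl39l was not called (-0.34, adjusted p = 0.632). Rpl3 fell from 663 and 1026 to 289 and 567 (-0.98, SE 0.30, adjusted p = 0.0384, edgeR), and Rpl3l was not called (0.06, adjusted p = 0.954). The pairs Rpl7 and Rpl7l1 (0.74 and 0.16), Rpl36a and Rpl36al (-0.25 and 0.56) and Rps27 and Rps27l (-0.28 and -0.77) held no call, nor did Rps4x (-0.40). The difference within a pair was not tested, and the calls of Rpl22l1 (adjusted p up to 0.132), Rpl39 (0.0951) and Rpl3 (0.345) were each lost on leaving out single libraries.

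The fallen genes were compared with the others by level and sequence, as a description. They were less abundant than the rest, with a median siNeg level of 584 CPM against 1254 for the genes not called and 1459 for those that rose. The GC content of their last 100 bases had a median of 35.0% against 41.0% and 43.5% in the same 2 groups, and ranged from 28 to 56% beside 25 to 63% for the genes not called. Across the 84 genes, which share libraries and are not independent, the log2 fold change had a Spearman rho of 0.37 with the siNeg level, 0.16 with GC content, -0.09 with the shared share of the end and -0.01 with 3′ UTR length. Of the 16 fallen genes with a promoter entry, 0 held CAGCTG, 1 (Rpl34) held CACGTG, and 3 had the C and pyrimidines exactly at the start. In the untreated comparison the fallen genes had log2 fold changes from -0.55 to 0.17.

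Levels in siNeg were not those of untreated knockout cells for every gene, although the 2 sets cannot be told apart from the siPOOL. The log2 ratio of the siNeg to the KO mean had a median of 0.07 over the 84 genes and ran from -1.26 (Rps27rt) to 1.19 (Rpl35). For the 19 fallen genes it ran from -0.54 to 0.93 with a median of 0.32. Rpl35 stood at 58.1 to 65.0 CPM in the 4 untreated libraries and at 120 to 196 in the 4 siPOOL libraries.

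Genes related to the ribosomal proteins by function were taken from lists. Fau and Rack1, ribosomal proteins with other names, were called in neither comparison by edgeR: their log2 fold changes were 0.18 and -0.16 in KO (adjusted p = 0.767 and 0.759) and -0.32 and 0.21 in siTfap4 (adjusted p = 0.458 and 0.584). In KO against WT the other lists of this kind below also had 0 calls by edgeR and DESeq2. Of their genes 3 of 20, 1 of 13, 1 of 9 and 4 of 77 had an unadjusted p under 0.05 (edgeR). The same held for 3530 of all 15137 tested genes.

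Other translation genes whose mRNAs carry the pyrimidine tract changed in both directions in siTfap4, with 4 of 20 lower and 2 higher. Beside these and the next list, 11.1% of all tested genes were called lower and 4.36% higher. Naca, a chaperone subunit at the ribosome's exit, fell (log2 fold change -1.88, adjusted p = 0.0110), as did the initiation factor gene Eif3e (-1.36, adjusted p = 0.0195), and Eef1a1, the main elongation factor, rose (1.30, adjusted p = 0.00897, edgeR). Of 13 genes of mTORC1 and LARP1 control, Rheb (-0.91) and Eif4ebp2 (-0.82) fell and Mlst8 (0.94) rose.

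Of the 9 chaperones of newly made ribosomal proteins 4 fell and 0 rose. Pdcd2, a chaperone of Rps2, fell from 33.3 and 27.0 CPM to 3.44 and 7.31 (log2 fold change -2.48, SE 0.33, adjusted p = 0.000166, edgeR), Pdcd2l from 59.0 and 54.9 to 3.82 and 20.5 (-2.21, SE 0.48, adjusted p = 0.00949, edgeR), and Heatr3, which carries Rpl5 into the nucleus, from 28.1 and 28.0 to 10.4 and 13.1 (-1.25, SE 0.28, adjusted p = 0.00716, edgeR). The fourth was Zfp277. For the mitochondrial ribosomal proteins, which belong to a separate ribosome, 10 of 77 tested genes were lower and 4 higher, with a median log2 fold change of 0.14; Mrpl27 (-2.47), Mrpl39 (-2.41) and Mrps21 (-4.20) were among the lower. Of all tested genes 11.1% were called lower and 4.36% higher in siTfap4, or 15.4% in either direction.

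Embryonic stem cell markers moved with the Tfap4 siPOOL. Their summed level was 3480 to 3662 CPM in siNeg and 2600 to 2709 in siTfap4; 2 of 9 were lower, Nanog (log2 fold change -1.49) and Dppa5a (-6.05), and 1, Pou5f1, was higher (1.02). Markers of fibroblasts had 0 calls in this comparison (edgeR and DESeq2, 0 at an unadjusted p under 0.05), with summed levels of 11.4 to 13.6 CPM in siNeg and 7.67 to 9.94 in siTfap4, and those of primitive endoderm had 0 (edgeR and DESeq2, 1 at an unadjusted p under 0.05), with 448 to 449 and 511 to 683 CPM. Sparc was again most of the endoderm sums, at 410 and 421 CPM in siNeg and 626 and 474 in siTfap4. The part of these marker shifts, of depth and of the GC slopes in the changes of the ribosomal protein genes was not tested, beyond the GC-corrected counts given above. In bulk RNA, fewer cells of a kind and less RNA per cell cannot be told apart.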

How the data were processed

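QuantSeq 3′ mRNA libraries of 8 samples were deposited as 1 table of raw read counts per Ensembl gene, made by the authors. The submitters' processing notes name GRCm38 and Trim Galore. Of the aligner, the counter, strand use and multi-mapped reads nothing is given in the sources used here. Symbols, gene models and transcripts came from GENCODE M21 (99.7% of table genes had a symbol), and promoters and microRNAs from RefSeq GRCm38.p6. Columns were matched to samples by name, and 0 columns were left unused.

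Counts were tested with edgeR 4.0.16 (R 4.3.3; filterByExpr, TMM, quasi-likelihood, 4 group means over 8 libraries, 4 residual degrees of freedom), adjusted by Benjamini-Hochberg over 15137 genes at 0.05; a gene called lower or higher passed this. Scripts were tested on simulated data. DESeq2 1.42.0, limma-voom 3.58.1, other scalings and filters, a GC correction, a replicate block, each library left out, and sums with pseudogenes (the last, and the stop-codon window, chosen after seeing the data) were alternatives. CPM in the text is scaled with TMM; ratios between single libraries or means use CPM + 1. The shared end was the percentage of the last 200 transcript bases, or of 200 bases ending 50 past the stop codon, in 31-base words found in other genes. Total counts of 8326675 to 12726123 set the precision of the low genes.

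The members and lists were chosen with earlier results of these data known. Named genes were: every called member, or the 6 largest changes in a direction with over 8 calls; the 3 highest and 3 lowest with a largely unshared end; the 5 highest in mean CPM; stalk, platform, 5S-particle, S6 and ubiquitin-fusion members; paralogs with their main copies; and up to 3 called genes of each other list, or its 2 most abundant where none was called. Values of 1 member and 1 listed gene are not reported here.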

Additional observations from a re-analysis of the deposited data

How the results depend on the processing

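Read depth and duplicates limit this comparison of small changes, and leaving out 1 library leaves a lone duplicate that is assumed to vary like the other groups. For KO against WT the count of genes called higher was 0 and became 1 (Rpl10l) with DESeq2, limma-voom, library totals, no filter, the 4 libraries alone, the replicate block and the block with the GC correction, and 0 to 1 with a library left out; among genes with an unshared end the count called in either direction, also 0, became 1 in the same settings, 2 with the 4 libraries alone (Rpl10l higher, Rps27l lower), and 0 to 1 with a library left out. The count called lower, 1, became 5 with the 4 libraries alone and 0 with the pseudogenes added, and was 0 to 1 with a library left out. All genes called, 1506, ran from 629 to 1566 with a library left out. For siTfap4 against siNeg the 4 called higher became 8 with DESeq2, 7 with limma-voom, 7 with the replicate block, 0 with the 4 libraries alone, 2 with the GC correction and 0 to 13 with a library left out. The 19 called lower became 12 without a filter, 25 with the block, 32 with the block and the GC correction, and 12 (without siTfap4 replicate 1) to 31 (without siTfap4 replicate 2). All genes called, 2334, ran from 522 to 2961, lowest without siTfap4 replicate 1 and 763 without siNeg replicate 1; the share called higher was 28.3%, 18.1% with the 4 libraries alone, 2.49% without siTfap4 replicate 1, 4.72% without siNeg replicate 1 and 36.6% at most, without siTfap4 replicate 2. Among genes with an unshared end the 8 calls became 5 with the 4 libraries alone, 0 with the limit also at the stop codon, and 4 to 11 with a library left out. The summed CPM of the members in WT came to 10.1% of the scaled library, and 10.4% with library totals. Same-numbered libraries deviated together with r = -0.06 for WT and KO and 0.13 for siNeg and siTfap4 over all tested genes (2 pairs each), and the labels do not say what a number marks, so no pairing was assumed. Among the members, replicate 1 was lower in both siPOOL groups. With the pseudogenes added Rps13, called lower alone (-2.09), stood at 0.16 and was not called, and Rps27rt, not called alone (-0.83), was called higher (0.95); no other value of a named gene changed sign while called in either setting. Of the values of named genes under the alternatives, 913 kept their side of the threshold in KO against WT, 14 passed it anew and 4 lost it; in siTfap4 against siNeg these were 840, 23 and 66. Among those that kept their side, 43 and 32 changed sign without a call in either setting. The cause of these shifts was not tested. Protein identity between paralogs was not run.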
